A study of Drosophila melanogaster with 33 samples.

Results

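clockwork orange (cwo) and cycle (cyc) are clock genes of Drosophila melanogaster. Their open chromatin was followed through 33 ATAC-seq libraries of adult brain cells. ATAC-seq maps open chromatin by the places where the transposase Tn5 inserts into DNA. A called peak was taken when it overlapped the gene body or the 1 kb upstream of either gene in the dm6 genome. By this rule 205 of 717706 peaks were taken, 140 at cwo and 65 at cyc. They merged into 7 of 36210 regions, 5 at cwo and 2 at cyc, and the genes are 2 of 24166 in the annotation. Each library called 4 to 8 of these peaks.

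All flies carried Clk-GAL4 and UAS-GFP-NLS, so that nuclear GFP was driven by the promoter of the Clk gene and was inherited by every group. Cells from pooled brains were sorted by flow cytometry into those with GFP (clock neurons) and those without (non-clock cells), and each sort gave a library. The per01 flies lack functional PERIOD and were kept in constant darkness (DD). Their clock neurons were collected at subjective dusk (CT36, 4 libraries) and subjective dawn (CT24, 4 libraries), beside 4 libraries of non-clock cells. Wild-type flies in DD gave clock neurons at CT36 (3 libraries) and CT24 (3 libraries) and 3 libraries of non-clock cells. Wild-type flies in light-dark cycles (LD) gave clock neurons at lights-off (ZT12, 4 libraries) and lights-on (ZT0, 4 libraries) and 4 libraries of non-clock cells. Here "dusk" stands for ZT12 and CT36, and "dawn" for ZT0 and CT24. The per01 labels name males only while the methods name both sexes for wild type, so sex cannot be told apart from genotype. The labels give no age, and no collection time for non-clock cells. Nothing states whether libraries of one group came from separate fly cultures, so p-values measure the spread between pools of brains.

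The fly clock is a feedback loop of transcription. CYC is a bHLH-PAS protein that pairs with CLK, and the pair binds E-boxes (CACGTG) to turn on per, tim, vri, Pdp1 and cwo. CWO is a bHLH-Orange repressor that binds the same E-boxes and lowers transcription from them. Transcripts of cwo cycle over the day in clock cells, whereas those of cyc do not. The question was whether a rhythmic and a non-rhythmic clock gene differ in chromatin across cell type, time, light regime and genotype.

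The gene cwo (FBgn0259938) lies on the plus strand at 3R:10388258-10400752, and its long first intron holds most of its called regions. The gene cyc (FBgn0023094) lies on the minus strand at 3L:19813770-19815938, with a first intron of 259 bp and a gap of 146 bp to its neighbour Fibp. Distances below are in bp from the annotated start of the gene. Windows on the intronic cwo sites with unlike calls in the cell types (1.6 and 7.3 kb), on the site that holds an E-box (2.2 kb), and both open stretches at the start of cyc are shown 5′ to 3′ on the strand of the gene, from the dm6 reference. The windows lie at 3R:10389853-10390002 (1.6 kb into cwo), 3R:10390338-10390487 (2.2 kb), 3R:10395495-10395644 (7.3 kb), 3L:19815514-19815754 (cyc intron 1) and 3L:19815939-19816084 (the gap upstream of cyc). Capitals mark the E-box CACGTG.
cwo intron 1, 1.6 kb: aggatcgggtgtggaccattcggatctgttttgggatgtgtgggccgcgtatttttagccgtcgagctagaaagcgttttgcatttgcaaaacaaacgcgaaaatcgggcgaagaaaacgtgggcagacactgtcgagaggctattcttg
cwo intron 1, 2.2 kb: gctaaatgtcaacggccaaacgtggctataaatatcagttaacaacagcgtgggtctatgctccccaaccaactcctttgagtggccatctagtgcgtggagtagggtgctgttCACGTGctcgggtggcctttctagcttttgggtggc
cwo intron 1, 7.3 kb: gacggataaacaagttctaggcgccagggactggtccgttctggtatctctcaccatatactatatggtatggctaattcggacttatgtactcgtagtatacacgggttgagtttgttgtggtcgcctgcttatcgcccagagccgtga
cyc intron 1: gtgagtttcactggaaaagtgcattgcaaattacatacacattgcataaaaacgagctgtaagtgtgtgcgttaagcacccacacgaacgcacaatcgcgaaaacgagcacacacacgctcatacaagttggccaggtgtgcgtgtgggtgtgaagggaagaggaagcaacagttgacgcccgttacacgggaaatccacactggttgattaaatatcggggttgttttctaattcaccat
cyc upstream: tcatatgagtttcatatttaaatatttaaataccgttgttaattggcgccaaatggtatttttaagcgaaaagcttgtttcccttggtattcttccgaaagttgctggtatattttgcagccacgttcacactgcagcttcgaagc

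E-boxes were dense at cwo, and 1 of 9 lay in called chromatin. Over its body and 1 kb upstream (13495 bp), cwo held 9 copies of CACGTG, or 0.667 per kb against 0.122 per kb in the genome. The copy at +2194 (3R:10390452-10390457) lay in the 2.2 kb window, and the other 8, at -934, +2556, +4847, +4980, +5100, +6137, +8785 and +12064, lay in no called region. The called regions of cwo span 1487, 852, 161, 179 and 182 bp of the 13495 bp, so by length alone most copies would lie outside them. The matching 3169 bp of cyc held 1 copy, at +1573, also outside called chromatin. CACGCG, a site favoured by bHLH-Orange repressors, occurred 3 times at cwo and in none of its called regions. TTATGTAA, the site of VRI and PDP1, occurred at neither gene. Both strands were searched, and the motifs do not overlap one another. Among windows of 300 bp on all 36210 regions, 6.01% held CACGTG, 8.59% CACGCG and 1.91% TTATGTAA. A match is a match of letters and not a measured binding site.

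The libraries differed in depth by cell type. Total tags, the sequenced ends used for peak calling, ran, in units of 1000000, from 4.18 to 17.0 in clock neurons and from 16.7 to 36.2 in non-clock cells. A library called 16504 to 25793 peaks. The height of a peak is given as tags at its summit per 1000000 tags of the library (CPM). The lowest called peak held 11 to 25 tags in clock neurons and 25 to 43 in non-clock cells. Where a library called no peak in a region, its value lies under a call limit, written with "below", that was higher in CPM in the shallower clock neuron libraries. In the limma fits such a library was given the lowest called tags of any of its peaks, which can lie under that limit. Markers of clock neurons summed to 50.5 to 78.5 CPM in clock neurons and to 12.6 to 24.1 CPM in non-clock cells, and Pdf, a neuropeptide gene of clock neurons, was called in 6 clock neuron and 0 non-clock libraries. Neuron markers summed to 101 to 135 CPM in clock neurons and 110 to 151 CPM in non-clock cells, and glia markers to 0 to 13.5 CPM in clock neurons and 11.6 to 25.6 CPM in non-clock cells. Non-clock cells were thus a mixture that held glial signal, and the part of cell mixture in the differences below was not tested.

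The strongest region of cwo covered its first exon (3R:10388057-10389543), spanned 1487 bp from -201 to +1285, and was called in all 33 libraries. It held 73 of the 140 cwo peaks, with summits near the start (27 libraries) and near +940 (31 libraries). Further summits were called near +228 in 7 libraries and near +595 in 8, all of them clock neuron libraries at +595. A summit without a call there can lie inside a wider peak, so these counts carry no test. At cyc the strongest region was intronic (3L:19815530-19815762, summit at +275, 33 libraries), and a weaker one sat at the start (3L:19815872-19816184, summit at -31, 32 libraries). Averaged over the libraries, cyc intron 1 stood at 13.9 CPM, cwo exon 1 at 9.09 CPM and the cyc start at 6.37 CPM. Further into cwo intron 1, 4 weaker regions were called in 24, 2, 16 and 14 libraries. They lay at 3R:10389707-10390558, 3R:10392061-10392221, 3R:10392816-10392994 and 3R:10395480-10395661. Just outside the rule, a peak from -1181 to -1027 of cwo was called in 12 libraries, and one beyond the 3′ end of cyc in 20.

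**Figure D1:**
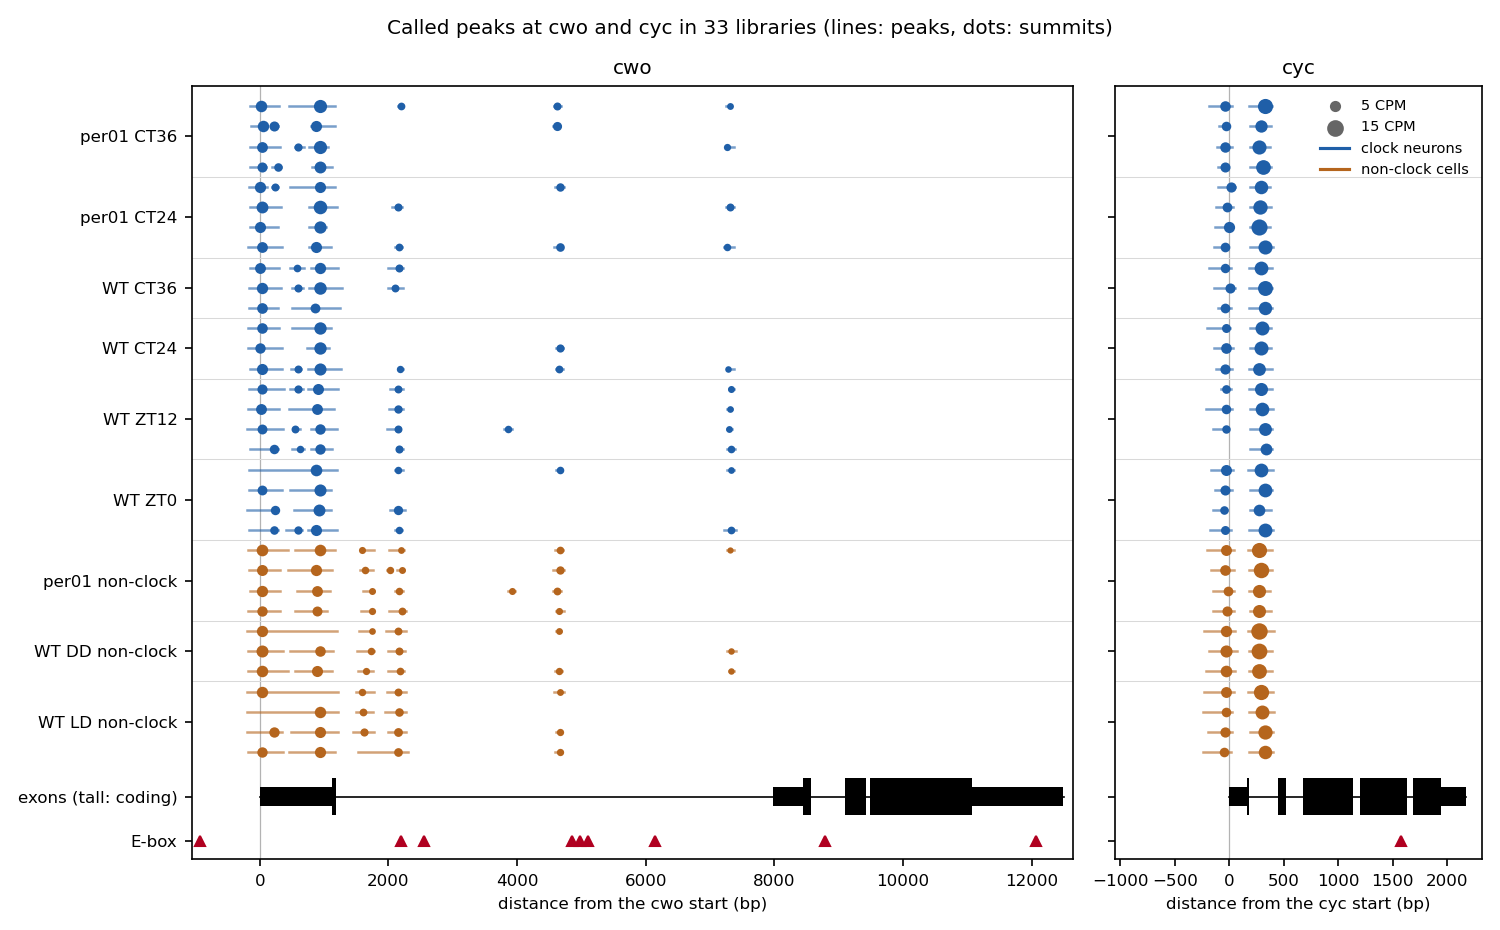
Called peaks at cwo and cyc in each of the 33 libraries, by distance in bp from the gene start, with lines for peaks, dots for summits sized by CPM, boxes for exons and triangles for E-boxes. The exon 1 region of cwo and the intron 1 region of cyc were called in all 33 libraries, whereas the intronic cwo regions were called in 24, 2, 16 and 14.

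The site farthest into the intron, 7.3 kb from the start of cwo, had more calls in clock neurons over all libraries, but not in wild-type DD. It was called in 11 of 22 clock neuron libraries and in 3 of 11 non-clock libraries. In LD it stood at 2.48, 2.13, 2.29 and 3.14 CPM in the 4 ZT12 libraries. At ZT0 it stood at 2.18 and 3.27 CPM in replicates 1 and 4 and below 1.81 and 1.75 CPM in replicates 2 and 3. None of the 4 LD non-clock libraries called it, at limits of 1.63, 1.33, 1.95 and 1.89 CPM. All 6 LD calls in clock neurons were thus above every limit of the LD non-clock libraries.

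The 7.3 kb site entered the LD comparison through clock neuron libraries alone, and every LD non-clock value is a missing call. Its LD difference is thus a description: 0.90 ± 0.18 on the log2 scale (SE, n = 8 and 4). Missing calls were held at the lowest called tags of their library, 43, 33, 28 and 32 tags in the LD non-clock libraries. These lie at or under the limits given above, and the size of the difference depends on them. In LD 55.8% of all regions tested were called different between the cell types by limma. In per01 it was called in 2 of 4 CT36 libraries (2.30 and 2.69 CPM, the others below 3.13 and 2.63 CPM). It was also called in 2 of 4 per01 CT24 libraries (3.56 and 2.99 CPM, the others below 2.47 and 2.33 CPM) and in 1 of 4 per01 non-clock libraries (1.67 CPM, the others below 1.88, 1.90 and 1.91 CPM). In per01 the 4 calls in clock neurons were enough for the site to enter, and 7 of its 12 values are missing calls held in the same way. Its difference of 0.64 ± 0.16 (SE, n = 8 and 4) is likewise a description, beside 47.7% of all regions called. With 1 level of 1.18 CPM for missing peaks in every library, the per01 difference was 0.43 ± 0.33 and the LD difference 0.90 ± 0.27.

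In wild-type DD the 7.3 kb site was called in 1 of 6 clock neuron libraries and in 2 of 3 non-clock libraries. It was called in 0 of 3 CT36 libraries, which lay below 1.95, 1.69 and 1.71 CPM. It was called in 1 of 3 CT24 libraries (1.99 CPM, the others below 1.85 and 2.28 CPM) and in 2 of 3 non-clock libraries (1.91 and 1.89 CPM, the other below 1.55 CPM). The limma difference was 0.20 ± 0.14 (SE, n = 6 and 3, adjusted p = 0.258), with 52.5% of all regions called. The value depended on the processing: it turned to -0.29 (adjusted p = 0.296) with 1 level for missing peaks, and was called higher in clock neurons with stricter peaks (0.36, adjusted p = 0.00715). Behind the latter, 1 of 6 clock neuron values is a call, and missing calls are filled higher in CPM in shallower libraries. That call is thus a description. The difference of the cell type effect between DD and LD was -0.71 ± 0.25 (limma adjusted p = 0.167, unadjusted p = 0.0102), where 3.79% of all regions were called. That between per01 and wild-type DD was 0.44 ± 0.22 (adjusted p = 0.514), where 0.994% were called. Both tests were chosen after the values were seen and rest mostly on missing calls.

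Nearer to the start, the site 1.6 kb into cwo had calls in non-clock libraries. A summit was called there in 0 of 22 clock neuron libraries and in 10 of 11 non-clock libraries. It stood at 2.53, 3.05, 2.42 and 2.63 CPM in per01 non-clock cells, at 2.14, 2.97 and 2.67 CPM in wild-type DD non-clock cells, and at 2.87, 3.34 and 3.81 CPM in replicates 1 to 3 of LD non-clock cells. In replicate 4 of LD non-clock cells a wider peak spanned the site. The call limits are estimates from the local background of the nearest peak. In LD clock neurons they were 1.90 to 2.32 CPM, in 8 of 8 libraries under the lowest LD non-clock value. In DD the limits were 2.06 to 2.41 CPM, and 1 of 6 clock neuron libraries was under the lowest non-clock value. In per01 the limits were 2.36 to 3.11 CPM, and 2 of 8 were under it.

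At the 1.6 kb site every clock neuron value is thus a call limit, and in DD and per01 most limits were above the lowest non-clock value. No fold change or p is given for it, since it could enter a comparison only through the non-clock libraries, where it was called. Among all summits matched within 150 bp, limma called 50.3% between the cell types in DD and 44.2% in per01.

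The site 2.2 kb into cwo, which holds the E-box, was called in both cell types. The region around it was called in 13 of 22 clock neuron libraries and in 11 of 11 non-clock libraries. At ZT12 it stood at 3.50, 4.02, 3.57 and 3.69 CPM, at ZT0 at 2.95, 5.34 and 3.04 CPM in replicates 1, 3 and 4 and below 2.21 CPM in replicate 2, and in LD non-clock cells at 3.51, 4.31, 4.66 and 4.53 CPM. The groups overlapped, and the LD difference was -0.22 ± 0.23 (SE, n = 8 and 4, limma adjusted p = 0.453). Wild-type DD clock neurons had calls of 3.67 and 3.47 CPM at CT36 and 2.84 CPM at CT24, and DD non-clock cells had 3.46, 3.55 and 3.18 CPM. In per01, clock neurons had calls of 3.29 CPM at CT36 and 3.68 and 3.32 CPM at CT24, and non-clock cells had 2.53, 3.05, 3.05 and 3.35 CPM. The 3 DD clock neuron libraries without a call lay below 2.39, 2.28 and 2.25 CPM, under every DD non-clock value. The 5 per01 clock neuron libraries without a call had limits of 2.36 to 3.11 CPM. The limma differences were -0.43 ± 0.26 in DD (adjusted p = 0.197) and -0.23 ± 0.19 in per01 (adjusted p = 0.361). The DD difference was called lower without CT36 replicate 1 (-0.55, limma adjusted p = 0.0977). Regions built from the libraries compared can set the 1.6 kb site apart as a region of its own. No value from that build is given here. The region includes the 1.6 kb site, which its highest summit does not show.

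The site 4.7 kb into cwo was called in 7 of 22 clock neuron libraries and in 9 of 11 non-clock libraries. Calls in clock neurons ran from 3.12 to 5.09 CPM and came from per01 (4 of 8 libraries), CT24 (2 of 3) and ZT0 (1 of 4), with none at ZT12 or CT36. Calls in non-clock cells ran from 2.28 to 4.01 CPM. Limits in the clock neuron libraries without a call overlapped these values, and no cell type difference was called by limma in LD (-0.11 ± 0.21), DD (0.21 ± 0.31) or per01 (-0.13 ± 0.25; SE). A further region, at 3.9 kb, was called in 1 ZT12 library at 3.02 CPM and in 1 per01 non-clock library at 2.48 CPM.

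Both regions of cyc were lower in clock neurons than in non-clock cells in wild-type DD. At the cyc start, CT36 libraries had 5.50, 6.49 and 5.94 CPM and CT24 libraries 4.90, 7.51 and 6.68 CPM, against 8.51, 9.98 and 9.08 CPM in DD non-clock cells. The groups did not overlap, and the difference was -0.55 ± 0.13 (SE, n = 6 and 3, limma adjusted p = 0.00489). In cyc intron 1, CT36 libraries had 13.3, 15.8 and 12.4 CPM and CT24 libraries 13.7, 13.8 and 11.2 CPM, against 19.4, 17.8 and 15.4 CPM in DD non-clock cells. Here the highest clock neuron value passed the lowest non-clock value, and the difference was -0.36 ± 0.10 (SE, n = 6 and 3, limma adjusted p = 0.0117). With 52.5% of all regions called in this comparison, cyc was among the many regions that differed.

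In LD and per01 neither difference passed the test as reported. The cyc start had 4.53, 5.66 and 4.21 CPM in ZT12 replicates 1 to 3 with replicate 4 below 3.69 CPM, 8.01, 6.54, 4.37 and 4.87 CPM at ZT0, and 7.82, 5.80, 6.77 and 5.75 CPM in LD non-clock cells. The groups overlapped (limma -0.34 ± 0.23, SE, adjusted p = 0.234). In per01 it had 7.24, 5.67, 7.09 and 6.46 CPM at CT36, 6.64, 6.05, 8.35 and 5.87 CPM at CT24, and 7.92, 7.42, 5.93 and 6.58 CPM in non-clock cells. The ranges overlapped here too (limma -0.13 ± 0.12, SE, adjusted p = 0.414). In cyc intron 1 the differences were -0.16 ± 0.10 in LD (adjusted p = 0.187) and -0.04 ± 0.12 in per01 (adjusted p = 0.838). The LD one was called lower with total-tag scaling (-0.28, adjusted p = 0.0599) and without ZT0 replicate 4 (-0.20, adjusted p = 0.0869). The cell type effect differed between per01 and wild-type DD by 0.42 ± 0.17 at the cyc start (limma adjusted p = 0.385, unadjusted p = 0.0218) and by 0.32 ± 0.18 in cyc intron 1 (adjusted p = 0.576), and neither was called.

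The exon 1 region of cwo passed no test between the cell types as reported. In LD it had 8.03, 7.79, 7.05 and 6.97 CPM at ZT12 and 9.07, 9.95, 9.61 and 8.21 CPM at ZT0, against 8.65, 8.70, 8.17 and 8.31 CPM in non-clock cells. The non-clock values lay within the clock neuron range, and the difference was 0.08 ± 0.10 (SE, n = 8 and 4, limma adjusted p = 0.551). In DD it had 8.48, 10.7 and 7.47 CPM at CT36 and 10.4, 10.4 and 9.94 CPM at CT24, against 8.42, 9.73 and 8.87 CPM in non-clock cells (limma 0.11 ± 0.11, SE, adjusted p = 0.450). In per01 it had 12.0, 8.80, 12.1 and 9.57 CPM at CT36 and 8.44, 12.8, 10.3 and 8.20 CPM at CT24, against 9.13, 8.39, 8.47 and 6.94 CPM in non-clock cells (limma 0.24 ± 0.13, SE, adjusted p = 0.146). The groups overlapped in both. The per01 difference was called higher in clock neurons with total-tag scaling (0.30, adjusted p = 0.0748) and without per01 CT24 replicate 1 (0.28, adjusted p = 0.0873).

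Within exon 1 of cwo the balance of summits had unlike medians in the cell types. The summit near +940 was higher than the one at the start in 14 of 18 clock neuron libraries that called both, and in 2 of 7 such non-clock libraries. The median ratio of the +940 summit to the start summit was 1.24 (0.819 to 1.62) in clock neurons and 0.917 (0.741 to 1.19) in non-clock cells. The ranges overlapped, and this comparison was made after the values were seen and carries no test.

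Over the members tested, the median cell type difference was -0.14 in LD, -0.13 in DD and -0.08 in per01, beside 0.04, -0.04 and -0.02 over all regions. Of 6 members each, limma called 1 in LD, 2 in DD and 1 in per01, beside 55.8%, 52.5% and 47.7% of all regions. The 2 in DD were both cyc regions, lower in clock neurons, and the call in LD and in per01 was the 7.3 kb site of cwo, which the filter admitted through the clock neuron libraries.

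**Figure D2:**
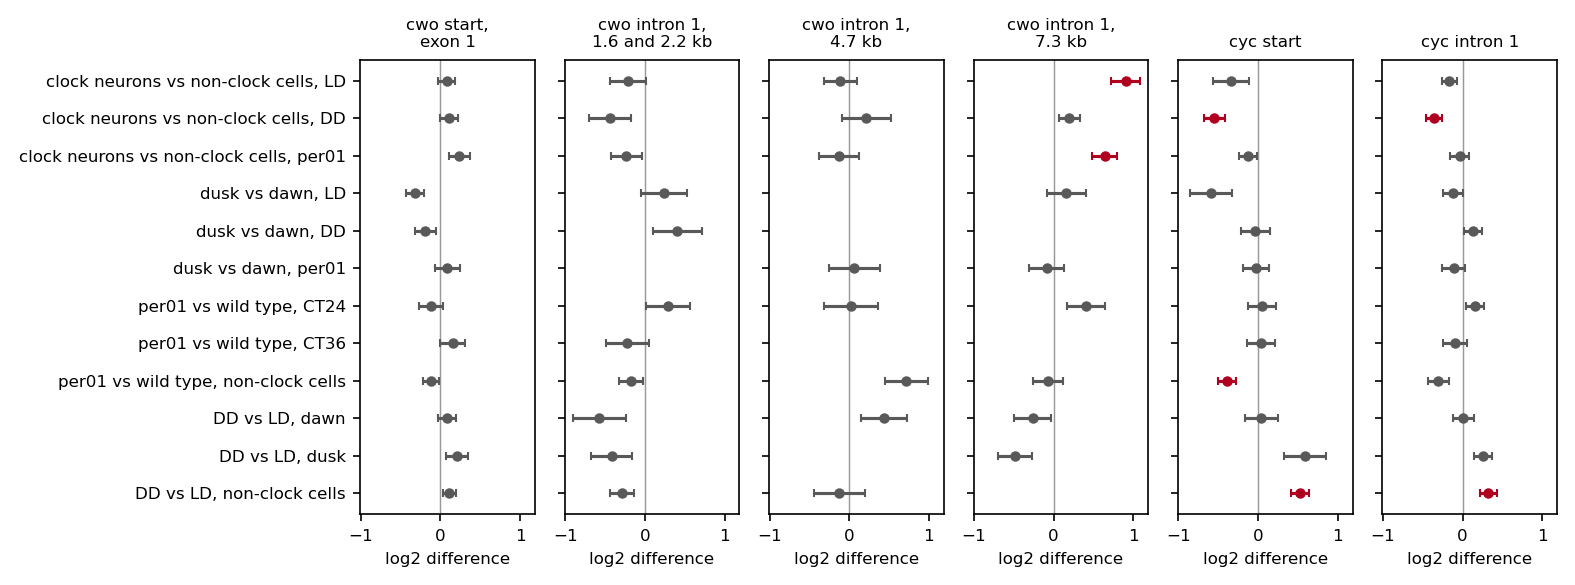
Log2 difference ± SE of each member region in each comparison, with red points for an adjusted p under 0.1. For clock neurons over non-clock cells both cyc regions stand at -0.55 and -0.36 in DD, and the 7.3 kb region of cwo, where most non-clock values are missing calls, stands at 0.90 in LD and 0.64 in per01.

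No member region passed the test between dusk and dawn. In LD the cwo exon 1 region averaged 7.46 ± 0.53 CPM at ZT12 and 9.21 ± 0.76 CPM at ZT0 (SD, n = 4 each), and every ZT12 value lay under every ZT0 value. The limma difference was -0.32 ± 0.12 (SE, unadjusted p = 0.0141, adjusted p = 0.656), beside 0.103% of all regions called. In DD it averaged 8.88 ± 1.64 CPM at CT36 and 10.3 ± 0.29 CPM at CT24 (SD, n = 3 each), and the ranges overlapped (limma -0.19 ± 0.13, adjusted p = 0.685; 0.635% of all regions called). In per01 it averaged 10.6 ± 1.67 CPM at CT36 and 9.94 ± 2.13 CPM at CT24 (SD, n = 4 each), with overlapping ranges (limma 0.09 ± 0.16, adjusted p = 1.00; 0.00594% called).

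At the non-rhythmic gene, cyc, no difference between dusk and dawn passed the test either. The cyc start was lower at ZT12 than at ZT0 by -0.59 ± 0.26 (limma, SE, n = 4 each, unadjusted p = 0.0398, adjusted p = 0.805), with overlapping ranges. ZT12 replicate 4 had no call and was held at 15 tags, its lowest called peak, which lies under its limit of 3.69 CPM. The size of the difference depends on this value. In cyc intron 1 the ZT12 libraries had 11.8, 13.0, 11.4 and 9.43 CPM and the ZT0 libraries 13.3, 13.3, 9.12 and 13.5 CPM (limma -0.12 ± 0.13, adjusted p = 0.957). In DD the differences were -0.04 ± 0.18 and 0.13 ± 0.11 at these regions, and in per01 they were -0.03 and -0.11. limma called 0 of 5 member regions in LD, 0 of 4 in DD and 0 of 5 in per01, and 2, 0 and 0 had an unadjusted p under 0.05.

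The time difference itself was compared between conditions. For cwo exon 1 it differed by 0.12 ± 0.17 between DD and LD and by 0.28 ± 0.23 between per01 and wild type (limma, SE). For the cyc start it differed by 0.54 ± 0.36 between DD and LD, with ZT12 replicate 4 again held at its lowest called tags. limma called 0 of 6 member regions in either test, with 0 at an unadjusted p under 0.05, beside 0.013% of all regions for DD against LD and 0.047% for per01 against wild type. With 3 or 4 libraries a group, a p that misses the threshold does not show that dusk and dawn were alike. The paper tested read counts in place of summit tags and reported more peaks that differed between dawn and dusk.

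**Figure D3:**
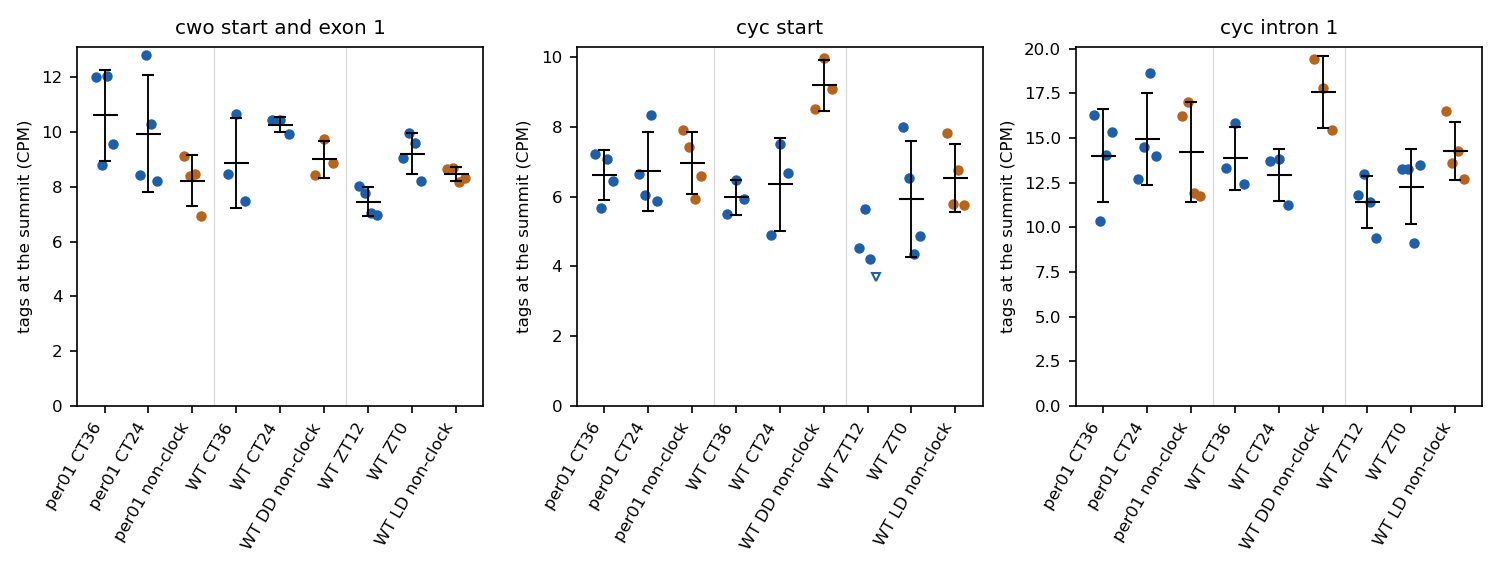
CPM of cwo exon 1, the cyc start and cyc intron 1 by group, with blue for clock neurons, orange for non-clock cells, dots for libraries, an open triangle for the call limit of the 1 library without a call, and lines with bars for the mean ± SD. In cwo exon 1 the ZT12 libraries (6.97 to 8.03 CPM) lie under the ZT0 libraries (8.21 to 9.95 CPM), and in cyc intron 1 the DD non-clock libraries reach 19.4 CPM.

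The order of the group means was not the same at both genes. For cwo exon 1 it ran from per01 CT36 (10.6 CPM) through CT24, per01 CT24, ZT0, DD non-clock, CT36, LD non-clock and per01 non-clock to ZT12 (7.46 CPM), and neighbours in this order differed by less than the larger of their SDs. For cyc intron 1 it ran from DD non-clock (17.6 CPM) through per01 CT24, LD non-clock, per01 non-clock, per01 CT36, CT36, CT24 and ZT0 to ZT12 (11.4 CPM). There the neighbours also differed by less than the larger SD, except that DD non-clock stood above the next group by slightly more. ZT12 was thus the lowest group at both.

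No member passed the test between per01 and wild-type clock neurons. At CT36, per01 and wild type differed by 0.15 at cwo exon 1, 0.04 at the cyc start and -0.10 in cyc intron 1, and limma called 0 of 4 regions (0 at an unadjusted p under 0.05), beside 1.61% of all regions. At CT24 the differences were -0.12, 0.04 and 0.16, and limma called 0 of 6 regions (0 at an unadjusted p under 0.05), beside 8.16% of all regions. The 7.3 kb site of cwo had the largest of the CT24 values, 0.41 ± 0.24 (SE), with 2 of 4 per01 libraries and 1 of 3 wild-type libraries calling it.

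In non-clock cells cyc was lower in per01 than in wild type. The cyc start had 7.92, 7.42, 5.93 and 6.58 CPM in per01 non-clock cells, against 8.51, 9.98 and 9.08 CPM in wild-type DD non-clock cells, and the groups did not overlap. The difference was -0.39 ± 0.11 (SE, n = 4 and 3, limma adjusted p = 0.0923), beside 4.87% of all regions called. This call was lost without any of 6 of the 7 libraries in turn (adjusted p 0.158 to 0.320; it held without per01 replicate 1). In cyc intron 1 per01 non-clock cells had 16.2, 17.0, 11.9 and 11.7 CPM, and the difference was -0.30 ± 0.14 (unadjusted p = 0.046, adjusted p = 0.295). The 4.7 kb site of cwo had 3.23, 4.01, 3.40 and 2.51 CPM in per01 non-clock cells, against 2.28 and 2.80 CPM and 1 value below 1.76 CPM in wild type (0.71 ± 0.27, adjusted p = 0.210).

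Both cyc regions also differed by light regime in non-clock cells. The cyc start was higher in DD than in LD non-clock cells by 0.52 ± 0.12 (SE, n = 3 and 4, limma adjusted p = 0.0214), and the 3 DD values (8.51 to 9.98 CPM) lay above the 4 LD values (5.75 to 7.82 CPM). In cyc intron 1 the difference was 0.32 ± 0.10 (adjusted p = 0.0758), with 15.4 to 19.4 CPM in DD and 12.7 to 16.5 CPM in LD, which overlapped. In this comparison 16.0% of all regions were called, 2 of the 5 members tested among them and none at cwo. The call at the cyc start was lost without DD non-clock replicate 2 (0.47, adjusted p = 0.120). The call in cyc intron 1 was lost without DD replicate 1 or 2 or LD replicate 2, 3 or 4 (0.24 to 0.33, adjusted p 0.136 to 0.262). The cyc values of the 3 DD non-clock libraries thus enter 3 of the comparisons in which cyc was called: with DD clock neurons, with per01 non-clock cells and with LD non-clock cells.

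In clock neurons no member passed the test between DD and LD. At dawn, CT24 and ZT0 differed by 0.09 at cwo exon 1, 0.04 at the cyc start and 0.01 in cyc intron 1, and limma called 0 of 6 members (0 at an unadjusted p under 0.05), beside 5.52% of all regions. At dusk, CT36 was above ZT12 by 0.59 ± 0.27 at the cyc start (adjusted p = 0.249) and by 0.25 ± 0.11 in cyc intron 1 (adjusted p = 0.246). The cyc start value includes ZT12 replicate 4, which had no call and entered at its lowest called tags. At the 7.3 kb site of cwo the dusk value was -0.49 ± 0.22 (adjusted p = 0.241), with 0 of 3 CT36 and 4 of 4 ZT12 libraries calling it. limma called 0 of 5 members at dusk, 3 had an unadjusted p under 0.05, and 6.28% of all regions were called.

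Summed over its peaks, cwo held more signal than cyc in most libraries. The sum for cwo was 13.6 to 30.1 CPM (median 23.2) and that for cyc 9.43 to 27.9 CPM (median 19.8), and the ratio of cwo to cyc was 0.584 to 2.38 (median 1.19). A library called 2 to 6 peaks at cwo and 1 or 2 at cyc. The sums move with what was called: at cwo the called length was 701 to 1670 bp in clock neurons and 1499 to 2151 bp in non-clock cells, and the mean per peak was 4.27 to 9.23 CPM in clock neurons and 4.08 to 5.64 CPM in non-clock cells. At cyc the called length was 210 to 449 bp in clock neurons and 388 to 514 bp in non-clock cells.

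The summed signals of the 2 genes had opposite signs by time of day in LD, which the highest summits did not, and neither passed the test. For cwo it was 24.4, 21.7, 25.6 and 22.4 CPM at ZT12, against 17.3, 16.1, 20.4 and 22.9 CPM at ZT0 (log2 0.31, exact permutation p = 0.0857, adjusted p = 0.457, two-sided). For cyc it was 16.3, 18.6, 15.6 and 9.43 CPM at ZT12, against 21.3, 19.8, 13.5 and 18.3 CPM at ZT0 (log2 -0.30, exact permutation p = 0.343). The ranges overlapped at both genes. The ratio of cwo to cyc was 1.50, 1.17, 1.64 and 2.38 at ZT12, against 0.814, 0.812, 1.51 and 1.25 at ZT0 (log2 0.61, exact permutation p = 0.143, adjusted p = 0.558). The highest ratio, ZT12 replicate 4, came from the library that called 1 cyc peak. The signs depended on the measure, since cwo averaged 5 called peaks at ZT12 and 3.5 at ZT0. With the highest summit in place of the sum, cwo was lower at ZT12 (log2 -0.30, exact permutation p = 0.0286, adjusted p = 0.294, without overlap), cyc was at -0.10 and the ratio turned to -0.21.

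No gene sum passed the test in any comparison. Of 24 exact permutation tests on the sums, the lowest p was for cyc in DD clock neurons over DD non-clock cells (log2 -0.45, p = 0.0119, adjusted p = 0.286), which is the smallest p that 6 against 3 libraries allow. cyc summed to 18.8, 22.3 and 18.4 CPM at CT36 and 18.6, 21.3 and 17.9 CPM at CT24, against 27.9, 27.8 and 24.5 CPM in DD non-clock cells, without overlap. Of 12 tests on the ratio, the lowest p was for per01 over wild-type non-clock cells (log2 0.57, exact permutation p = 0.0286, adjusted p = 0.343), with 1.15, 1.17, 1.54 and 1.19 in per01 and 0.584, 0.914 and 1.12 in wild type. With 3 against 3 libraries no exact p could go below 0.1, and with 4 against 4 none below 0.0286. After adjustment, a single test at any of these smallest values could not pass the threshold, so such misses decide nothing. Only the cell type tests in LD and per01, where the exact permutation p can reach 0.00202, could pass alone.

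Tags within 5 kb on either side of the summit showed the same side for cyc. Around cyc they were 244, 260, 252 and 221 CPM at ZT12 and 259, 253, 227 and 223 CPM at ZT0, against 295, 268, 300 and 285 CPM in LD non-clock cells. The cell types did not overlap (log2 -0.25, exact permutation p = 0.00202, adjusted p = 0.0485), and this p is the smallest the design allows. The call was lost with a replicate block (adjusted p = 0.148) and without any of 7 of the 12 libraries in turn (ZT12 replicate 1 or 3, ZT0 replicate 2 or any LD non-clock library; log2 -0.28 to -0.22, adjusted p 0.143 to 0.146). In DD they were 278, 268 and 263 CPM at CT36 and 269, 277 and 267 CPM at CT24, against 298, 300 and 293 CPM in non-clock cells, again without overlap (log2 -0.14, exact permutation p = 0.0119, adjusted p = 0.143). In per01 they overlapped (log2 -0.01, exact permutation p = 0.911). Around cwo the LD difference was -0.18 (exact permutation p = 0.0222, adjusted p = 0.178), with 107 to 149 CPM over all libraries. These windows reach into neighbouring genes.

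**Figure D4:**
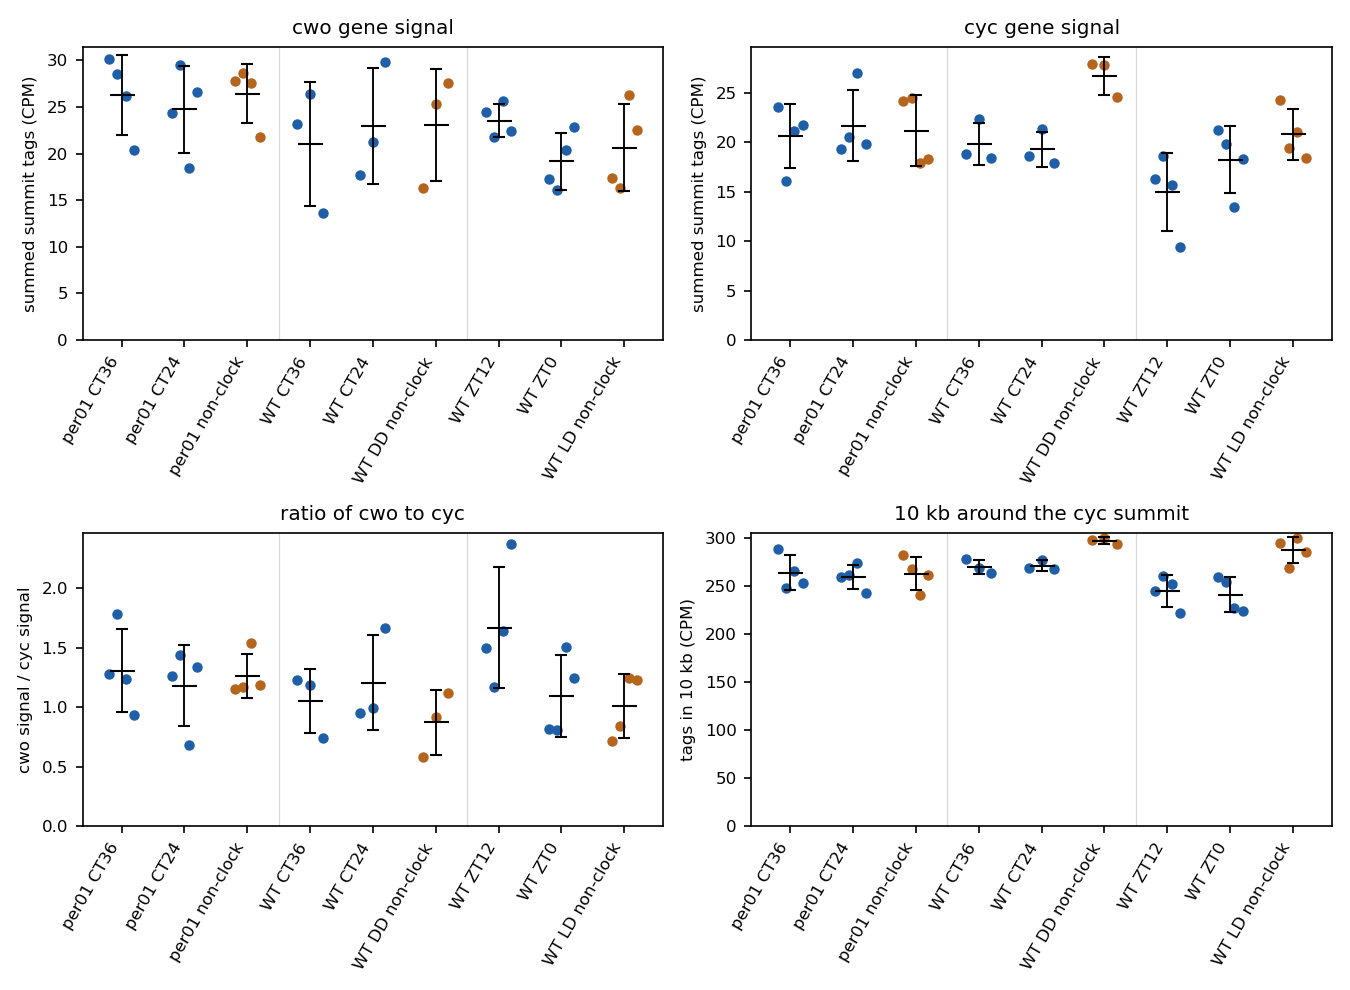
Summed CPM of the called peaks of cwo and cyc and their ratio by group, with dots for libraries and lines with bars for the mean ± SD. The ratio at ZT12 runs from 1.17 to 2.38 and at ZT0 from 0.812 to 1.51, and the cyc sums of DD non-clock cells (24.5 to 27.9 CPM) lie above those of DD clock neurons (17.9 to 22.3 CPM).

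The other core clock genes were set beside them, in comparisons that called 55.8% of all regions in LD, 52.5% in DD and 47.7% in per01. Each gene was represented by 1 region, that with its highest mean CPM. Clk had 7 regions, per 3, tim 6, vri 12, Pdp1 27 and cry 3, and the remaining ones are not covered by the counts below. Of Clk, per, tim, vri, Pdp1 and cry, 3 were called higher in clock neurons in LD (Clk, cry and tim) and 1 lower (Pdp1), 4 higher in DD (Clk, cry, per and tim) and 3 higher in per01 (Clk, cry and tim). Their median was 0.22 in LD, 0.44 in DD and 0.17 in per01. Clk, the partner of cyc, had a median of 21.9 CPM in clock neurons and 3.01 CPM in non-clock cells, with differences of 2.82 ± 0.11 in LD, 2.73 ± 0.10 in DD and 3.07 ± 0.09 in per01 (limma, SE). The Clk promoter also drives the transgene that marked the cells. tim, whose protein partners PER, had medians of 17.3 CPM in clock neurons and 7.36 CPM in non-clock cells, and per had medians of 27.8 CPM in clock neurons and 27.5 CPM in non-clock cells. limma called 0 of these 6 regions between dusk and dawn in LD, DD or per01, while 2 in LD, 3 in DD and 0 in per01 had an unadjusted p under 0.05 (tim and vri in LD, and with cry in DD). This does not speak to the other regions of these genes. It also does not speak to the read counts that the paper tested, where peaks at tim and per differed by time.

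Relatives of both proteins were compared in the same way, against the same shares of all regions (55.8%, 52.5% and 47.7% called in LD, DD and per01). Of 10 bHLH-Orange genes, the family of cwo, 5 had a region at all. In LD 0 were called higher and 2 of 4 lower in clock neurons (E(spl)m3-HLH, a Notch target, and hairy, h, a segmentation gene). In DD 1 was higher (Hey, a Notch target) and 3 lower (E(spl)m3-HLH, E(spl)mbeta-HLH and h), and in per01 0 were higher and 3 of 3 lower. The peak at h was called in 2 of 22 clock neuron libraries and in 11 of 11 non-clock libraries, and that at E(spl)mbeta-HLH in 1 of 22 and 10 of 11. Both thus entered mostly through the non-clock libraries, and their lower values are a description that rests on missing calls. E(spl)m3-HLH was called in 9 of 22 libraries from clock neurons and 11 of 11 from non-clock cells. Hey was called in 2 of 22 clock neuron and 6 of 11 non-clock libraries. Its value rests mostly on missing calls, whose lowest called tags were higher in CPM in clock neurons. Of 9 bHLH-PAS genes with a region, the family of cyc, Clk and spineless (ss) were called higher in clock neurons in all 3 conditions and trachealess (trh) in DD, and gce with sima in LD and gce with tai in per01 were called lower. Between dusk and dawn 0 of the 9 bHLH-PAS genes were called by limma in LD, DD or per01 (0 at an unadjusted p under 0.05), and of the bHLH-Orange genes only 1 could be tested in LD and 0 in DD and per01.

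Across the 22 clock neuron libraries, the highest summits of cwo and cyc (log2 CPM) had a correlation of 0.533. The correlation of cwo with the 7269 genes called in these libraries had a median of 0.252, and that of cyc a median of 0.360. The genes most like cwo were lncRNA:CR44938, which shares its region and gives r = 1, corn (0.806) and Got1 (0.790). Those most like cyc were PNPase (0.838), lncRNA:CR45755 (0.821), and Gyg and CG44245 (0.817 each). These libraries share depth and sort, and the values are a description over 22 points.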

How the data were processed

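Per the methods, the authors trimmed reads (cutadapt 4.1), aligned them to dm6 (Bowtie2 2.4.5), removed mitochondrial reads (SAMtools 1.15.1) and duplicates (Picard 2.27.4), and called peaks with MACS2 2.2.7.1 at q 0.001, with ends shifted by -37 bp, extended to 74 bp, and all tags kept. The deposited tables hold a peak set for each library and give fold enrichment as a ratio over the local background, and -log10 p-values and q-values. The lowest deposited -log10 q was 3.01. From the deposited ratio and -log10 p, the tags at each summit, the background and the library total were recovered. They came out whole for 100% of peaks (tolerance 0.02), and the total scaled the values to CPM.

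Peaks of the 33 libraries were merged into regions, and the highest summit of a region gave its value. A missing call was given the lowest called tags of its own library, which can lie under the call limit printed for the region, since that limit follows the local background. A region entered a comparison once the libraries that called it reached the size of its smaller group, and was tested with limma 3.58.1 (R 4.3.3) on log2 of tags plus 1, after median-of-ratios scaling, with the libraries compared in 1 fit and Benjamini-Hochberg adjustment over all regions at 0.1. Gene sums, their ratio and the 10 kb tags were tested by two-sided exact permutation (scipy 1.17.1), adjusted over each family. Alternatives covered the scaling, the filter, the pseudocount, the level of missing calls, stricter peaks, matched summits, each library left out and a replicate block. On simulated data limma recovered 70 to 96% of 2-fold changes and 27 to 63% of smaller ones, by comparison. Regions with missing calls were not simulated. Sequences and motif searches used RefSeq Release 6, of the same build. The members, gene lists and added alternatives were chosen with earlier results of these data known. The gene list for bHLH-Orange held side (sidestep), which is no bHLH gene and was left out. Numbers of tags cover counting error only, since ends of one fragment are not independent. Genes named as most like cwo and cyc were those with the highest Pearson correlation over clock neuron libraries, and other named genes come from the lists.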

Additional observations from a re-analysis of the deposited data

Results flagged for a closer look

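In 58 groups of 4 libraries at cwo and cyc the highest and lowest values were compared with the rest of the group by Dixon's gap. Chance gives about 1 such case in 20 groups, and 4 were found. In per01 non-clock cells the summed cwo signal was 21.8 CPM in replicate 4 and 27.5 to 28.7 CPM in the other 3 libraries. In per01 CT24 clock neurons the summed cyc signal was 27.0 CPM in replicate 3 and 19.3 to 20.5 CPM in the others. In ZT0 clock neurons cyc intron 1, both as a region and as the highest summit of the gene, was 9.12 CPM in replicate 3 and 13.3 to 13.5 CPM in the others.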

How the results depend on the processing

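The number of member regions called between clock neurons and non-clock cells was 4, of which 2 were the 7.3 kb site of cwo, and it was 9 with summits matched within 150 bp (where a summit inside a wider peak counts as missing), 7 with regions built from the libraries compared (where the 1.6 kb site of cwo can form a region of its own), 2 among regions called in every library, 3 with 1 level in CPM for missing calls, and 4 to 5 with 1 library left out. For per01 against wild type it was 1, and 0 with matched summits, with regions called in at least 1 library, with 1 level in CPM and with a replicate block (0 to 1 with a library left out). For DD against LD it was 2, and 1 with matched summits and with the replicate block (0 to 3 with a library left out). Differences of cell type effects had 0 calls, and 1 with the replicate block (the 7.3 kb site of cwo, DD minus LD, adjusted p = 0.0900), and 0 to 1 with a library left out (1 without DD non-clock replicate 1). For the ratio of cwo to cyc it was 0, and 2 with the mean over called peaks, where clock neurons over non-clock cells gave 0.98 in DD (exact permutation, adjusted p = 0.0714) and per01 gave 0.56, which turned its sign (adjusted p = 0.0485). The 10 kb tags had 1 call, and 0 with the replicate block (0 to 1 with a library left out, where fewer libraries raise the smallest p). Dusk against dawn, differences of time effects and gene sums had 0 calls under every alternative. The 1-level alternative and the differences of cell type effects were added after seeing the data. Leaving out a library gave 935 refitted values of member regions, most of them not called as reported. Among these, 12 calls were lost and 6 gained, and 56 values changed sign, none of them called. The 935 values are thus not a number of calls. Replicate numbers did not meet the rule for pairing, though some same-numbered libraries deviated together: 17 of 51 same-numbered pairs had a correlation over 0.1 (-0.227 to 0.491), in 0 of 15 group pairs did all, and 24 of 51 correlated best with their own number. Over all regions in LD, total-tag scaling gave 6926 higher and 7163 lower in clock neurons against 7865 and 5067 as reported, and moved the median difference to -0.07 against 0.04. With that scaling the cell types in per01 gave 6297 higher and 3324 lower (5673 and 4519 as reported), per01 over wild type gave 370 and 94 at CT36 (148 and 144) and 776 and 405 at CT24 (720 and 802), and DD over LD at dawn gave 625 and 316 (560 and 569). Depth limits the 7.3 kb, 4.7 kb and 1.6 kb sites of cwo, which lie near the call limit.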
